A study of Mus musculus with 8 samples.

Results

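The genes Cybrd1, Slc11a2, Slc40a1, Heph and Tfrc carry iron from the gut lumen through the absorptive cell into the body, or return it to that cell from the blood. They were picked by name, as the 5 member genes of 19938 genes measured, and each was read by 1 probe set that names no other gene. Their levels were followed over 8 Affymetrix arrays. RNA came from intestinal epithelial cells of male mice of the outbred ICR stock, 8 weeks old, whose small intestine had been transfected in the living animal 4 days earlier. The siRNA groups received an siRNA for GFP (siGFP, 3 arrays) or siRNAs for YAP and TAZ (siYAP/TAZ, 3 arrays). The plasmid groups received a plasmid for an shRNA against LacZ (shLacZ, 1 array) or plasmids for shRNAs against YAP and TAZ (shYAP/TAZ, 1 array). The labels name a control array for each knockdown array, which gives 4 pairs, called siRNA pairs 1 to 3 and the shRNA pair. The series asked what lowering the transcriptional coactivators YAP and TAZ does to this epithelium. The labels do not give the segment of the small intestine, which cells took up the nucleic acids, or whether arrays of a group come from separate mice, so the p-values reflect only how far these samples differ, and that spread can be technical.

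Dietary iron is absorbed mainly in the duodenum. The brush border reductase encoded by Cybrd1 turns ferric into ferrous iron, and the transporter DMT1, encoded by Slc11a2, carries it into the enterocyte. On the opposite face of the cell, ferroportin, encoded by Slc40a1, exports the iron, and the membrane ferroxidase hephaestin, encoded by Heph, oxidises it so that transferrin can bind it. The transferrin receptor, encoded by Tfrc, takes iron up from the blood side and is typical of dividing cells. When cells are short of iron, iron regulatory proteins stabilise the Tfrc mRNA and block translation of ferritin, and the hypoxia factor HIF-2α, encoded by Epas1, raises transcription of apical iron uptake genes in the gut.

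Promoter sequences are shown for Cybrd1 and Tfrc, the members with an entry in the RefSeq promoter table (2 of 5, build GRCm38.p6), because hypoxia factors act on both genes. Each run covers 250 bases before the transcript start and 20 after it, 5′ to 3′ on the plus strand, and capitals mark the HIF core letters ACGTG or GCGTG on either strand. The Tfrc run is the more upstream of its 2 windows.
Cybrd1, chr2:71117804-71118073: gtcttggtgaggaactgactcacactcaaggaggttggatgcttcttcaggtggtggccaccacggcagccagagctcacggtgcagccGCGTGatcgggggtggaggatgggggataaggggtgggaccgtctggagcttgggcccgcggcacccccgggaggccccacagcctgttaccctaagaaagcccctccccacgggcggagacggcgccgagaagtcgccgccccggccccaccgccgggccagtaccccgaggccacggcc
Tfrc, chr16:32608646-32608915: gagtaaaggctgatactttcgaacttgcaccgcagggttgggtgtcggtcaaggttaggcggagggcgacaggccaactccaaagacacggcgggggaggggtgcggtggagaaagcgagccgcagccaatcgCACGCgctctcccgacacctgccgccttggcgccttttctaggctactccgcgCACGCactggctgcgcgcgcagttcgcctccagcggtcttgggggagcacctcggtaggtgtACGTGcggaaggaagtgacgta
The Cybrd1 window held 1 match, which begins at position -161 from the start. The Tfrc window held 3 matches, which begin at -117, -64 and -2. At least 1 of these letter runs occurs in 43.8% of the 32851 windows of the table, each 300 bases long, so a match is common. The TEAD core GGAATG, searched on both strands, occurs in 14.7% of windows and in none of those of Cybrd1 and Tfrc.

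The arrays differed in ways that the labels do not explain. Neither target of the knockdown was measurably lower: the mean log2 difference over the siRNA arrays was -0.12 (SE 0.32) for Yap1 and -0.28 (SE 0.36) for Wwtr1, which encodes TAZ (limma, adjusted p = 1.00 for both). The groups are therefore called by their labels. Epcam, which marks epithelium, lay between 11.47 and 12.38 on the log2 scale on all arrays. Fabp6, an ileal bile acid binding protein, was at 11.16, 10.45, 8.75 and 11.93 on siGFP 1, siGFP 3, siYAP/TAZ 1 and siYAP/TAZ 2, and between 4.24 and 4.40 on siGFP 2, siYAP/TAZ 3, shLacZ and shYAP/TAZ. Arrays of both siRNA groups thus fell on both sides, and siRNA pairs 2 and 3 joined an array with high Fabp6 to one with low Fabp6. The shRNA pair, low in Fabp6 on both arrays, differed in other regional genes. Slc10a2, also ileal, was at 4.55 on shLacZ and 6.53 on shYAP/TAZ, and the proximal gene Lct at 11.86 and 8.32. The mean of 14 mitotic genes was 5.71, 5.95 and 5.79 on siGFP 3, siYAP/TAZ 2 and siYAP/TAZ 3, and 7.60 to 8.49 on the other arrays. In such bulk samples fewer cells of a type and less RNA per cell cannot be told apart.

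**Figure D1:**
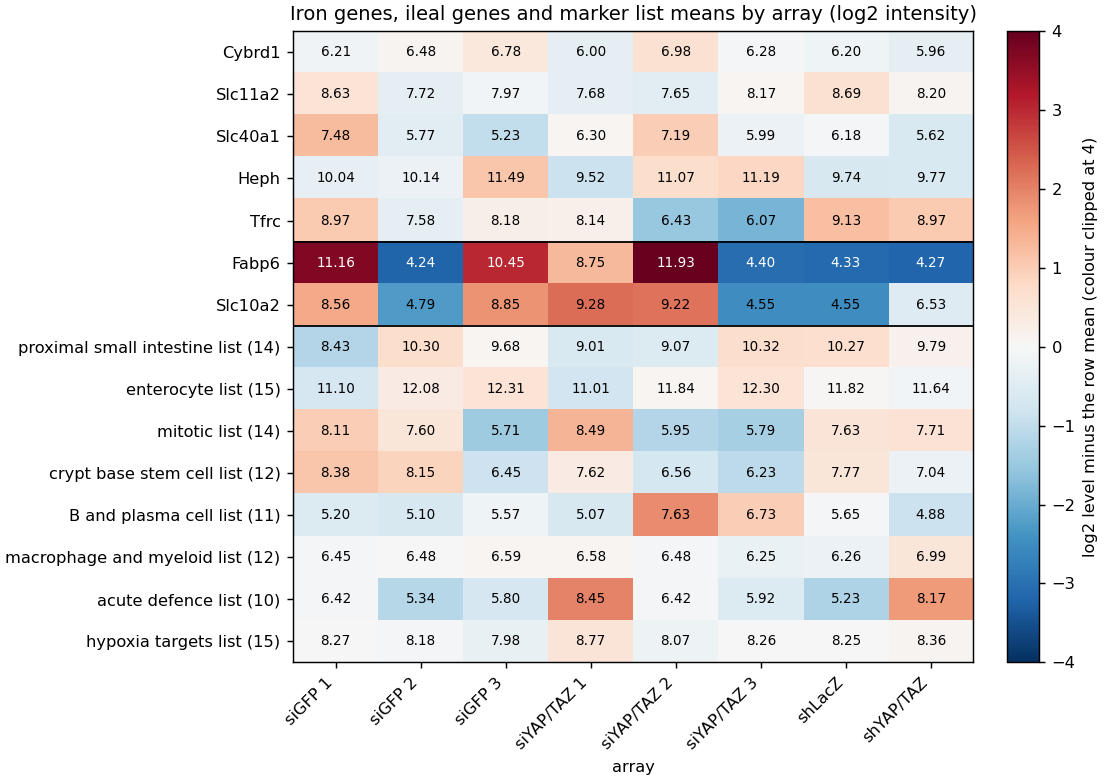
Levels by array (columns) of the 5 iron genes, of the ileal genes Fabp6 and Slc10a2, and of the mean of each marker list (number of measured genes in brackets), as log2 intensity in the cells; colour is the level minus the row mean. Fabp6 and the mitotic list split the arrays across the labelled groups. Fabp6 was at 4.24 to 4.40 on 4 arrays and 8.75 to 11.93 on the other 4. Slc10a2 was low and high on the same arrays except shYAP/TAZ, where it lay between, at 6.53.

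Across the labelled groups, none of the 5 genes passed the threshold on the adjusted p in either comparison. Tfrc stood out by size in the siRNA arm, where it was 2.57-fold lower in the mean of the siYAP/TAZ arrays than in siGFP. It was lower in all 4 pairs, but in the shRNA pair by a log2 difference of only -0.16, at percentile 34.8 of all genes. A mean at least 2-fold lower in the siRNA arm was found for 0.426% of all genes. Cybrd1, Slc11a2, Slc40a1 and Heph differed by at most 1.26-fold in the mean of the siRNA groups. In the siRNA arm limma called 0 of 5 members, as it did for all genes (0%), and at an unadjusted p under 0.05 it had 1 member, Tfrc, where the share of all genes was 1.19%. Over the 4 pairs limma, with the pair as a block, also called 0 of 5, beside 0.0201% of all genes. At an unadjusted p under 0.05 it had 1 member there too, Tfrc, beside 7.49% of all genes. The siRNA groups did not separate for any of the 5, beside 4.59% of all genes. One member was lower in all 4 pairs, beside 8.95% of all genes, and no member was higher in all 4, beside 6.02%. Within the siRNA pairs alone, Tfrc was again the 1 member lower in all 3 (12.9% of all genes), and none was higher in all 3 (9.38%).

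**Figure D2:**
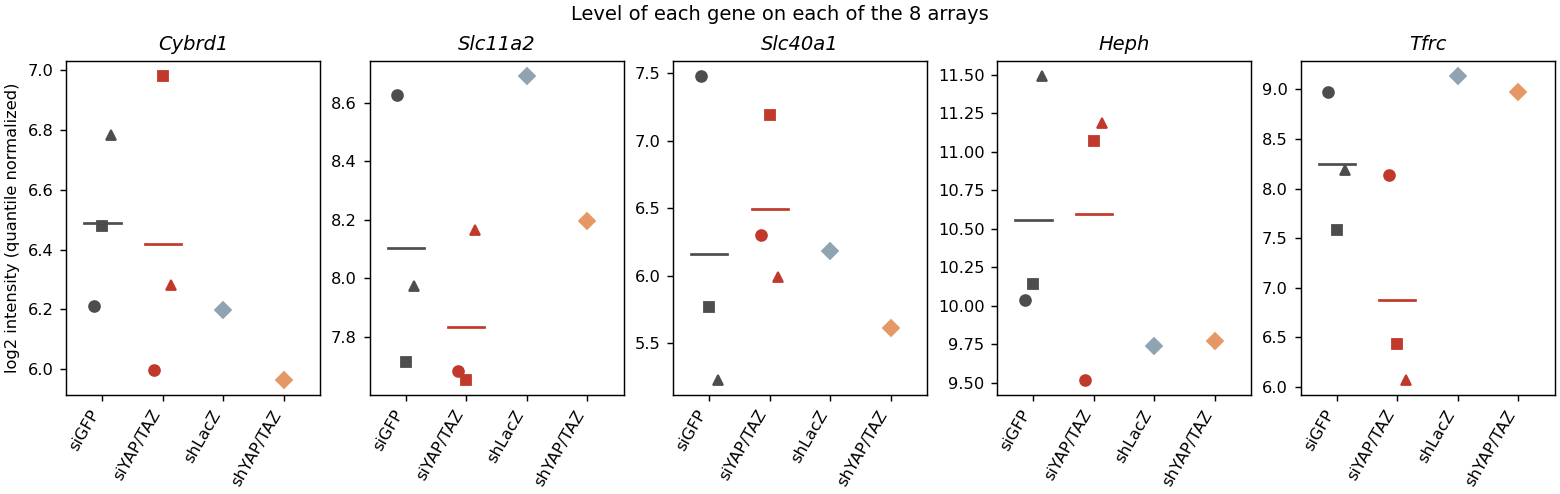
Log2 intensity (vertical axis, own scale per gene) of each gene on each of the 8 arrays, by group; circles, squares and triangles are siRNA replicates 1, 2 and 3, diamonds the single plasmid arrays, and bars the means of 3 arrays. Tfrc lies lowest on siYAP/TAZ 2 and siYAP/TAZ 3, at 6.43 and 6.07, while the groups overlap for all 5 genes.

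At the brush border, Cybrd1 gave a signal near the middle of all genes, and its SD over the arrays was near the middle too (percentile 44.4). Its log2 intensity was 6.21, 6.48 and 6.78 on the siGFP arrays and 6.0, 6.98 and 6.28 on the siYAP/TAZ arrays, and 6.20 on shLacZ and 5.96 on shYAP/TAZ. The highest and the lowest of the siRNA arrays were both labelled siYAP/TAZ, so that group enclosed the controls. The whole span over 8 arrays was 2.02-fold. By its mean over the 8 arrays Cybrd1 stood at percentile 45.7 of all genes, a place in array signal that is no count of transcripts. The 5 measured genes of red cell precursors stood at percentiles 32.2 (Klf1) to 61.4 (Slc4a1). Whether the Cybrd1 signal lay above background was not tested. The mean was 6.49 ± 0.29 (SD, n = 3) for siGFP and 6.42 ± 0.51 (SD, n = 3) for siYAP/TAZ, a log2 difference of -0.07 (SE 0.35, 95% interval -0.86 to 0.72; limma, adjusted p = 1.00; exact two-sided permutation p = 0.9). In the pairs Cybrd1 differed by -0.21, 0.50 and -0.50 with siRNA and by -0.23 with shRNA.

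Slc11a2, the importer that follows the reductase, had its highest levels on control arrays. Its log2 intensity was 8.63, 7.72 and 7.97 on the siGFP arrays, 7.68, 7.65 and 8.17 on the siYAP/TAZ arrays, 8.69 on shLacZ and 8.20 on shYAP/TAZ. The groups overlapped, because siYAP/TAZ 3 exceeded siGFP 2 and siGFP 3. The means of 8.11 ± 0.47 (SD, n = 3) and 7.83 ± 0.29 (SD, n = 3) differed by -0.27 (SE 0.34, 95% interval -1.04 to 0.50; limma, adjusted p = 1.00; exact two-sided permutation p = 0.5). The mean difference turned to 0.076 when limma weighted the arrays. Pair by pair, Slc11a2 differed by -0.94, -0.06 and 0.19 with siRNA and by -0.49 with shRNA, lower in 3 of 4. The probe set does not separate the transcript forms of Slc11a2, some of which carry an iron responsive element and some of which do not.

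At the blood side, Slc40a1 varied more over the arrays than 90.6% of genes by its SD. It was at 7.48, 5.77 and 5.23 on the siGFP arrays, 6.30, 7.19 and 5.99 on the siYAP/TAZ arrays, 6.18 on shLacZ and 5.62 on shYAP/TAZ, a span of 4.75-fold over the 8 arrays. siGFP held both the highest and the lowest of these values. By its mean over the arrays Slc40a1 stood at percentile 41.1 of all genes, and on siGFP 3 at 12.5. Whether its signal lay above background was not tested. The group means were 6.16 ± 1.17 (SD, n = 3) and 6.49 ± 0.62 (SD, n = 3), and their difference of 0.33 (SE 0.58, 95% interval -0.99 to 1.66) lay within that spread (limma, adjusted p = 1.00; exact two-sided permutation p = 0.7). Without siGFP 1 the difference was 0.99, without siGFP 3 it was -0.13 and without siYAP/TAZ 2 it was -0.015. The pairs differed in sign. Slc40a1 was lower in siRNA pair 1 and the shRNA pair, at -1.18 and -0.57, and higher in siRNA pairs 2 and 3, at 1.42 and 0.76.

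Those same pairs differed in other measures. The mean of 10 acute defence genes, such as Lcn2 and Saa1, differed by 2.03 in siRNA pair 1 and 2.94 in the shRNA pair, and by 1.08 and 0.12 in siRNA pairs 2 and 3. Macrophages also express Slc40a1, and the mean of 12 measured macrophage and myeloid genes of 12 listed ran from 6.45 to 6.59 over siGFP and from 6.25 to 6.58 over siYAP/TAZ. In the shRNA pair that mean was 6.26 on shLacZ and 6.99 on shYAP/TAZ, opposite in direction to Slc40a1. Their part in the Slc40a1 values was not tested.

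Heph gave the brightest signal of the 5 probe sets, within the top 6% of genes on every array (percentile 94.5 to 99.0). It was at 10.04, 10.14 and 11.49 on the siGFP arrays, 9.52, 11.07 and 11.19 on the siYAP/TAZ arrays, 9.74 on shLacZ and 9.77 on shYAP/TAZ. The arrays siGFP 3, siYAP/TAZ 2 and siYAP/TAZ 3 were high, at 11.07 or above against 10.14 or below, and they are the arrays with the lowest mitotic means. The group means of 10.56 ± 0.81 (SD, n = 3) and 10.59 ± 0.93 (SD, n = 3) differed by 0.04 (SE 0.55, 95% interval -1.21 to 1.29; limma, adjusted p = 1.00; exact two-sided permutation p = 1.0), and the sign turned without scaling between arrays (-0.017) and when any of 4 arrays was left out. With arrays weighted by limma the difference was 0.80. In the pairs Heph differed by -0.52, 0.93 and -0.30 with siRNA and by 0.03 with shRNA, where other scalings gave down to -0.07. The mean of 15 enterocyte genes was 12.31, 11.84 and 12.30 on the 3 arrays high in Heph and 11.01 to 12.08 on the others. The part of cell composition in the Heph values was not tested.

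Tfrc, the receptor for transferrin, had the widest span of the 5, 8.34-fold over the 8 arrays, and its SD over the arrays exceeded that of 98.3% of genes. Its log2 intensity was 8.97, 7.58 and 8.18 on the siGFP arrays and 8.14, 6.43 and 6.07 on the siYAP/TAZ arrays. It was 9.13 on shLacZ and 8.97 on shYAP/TAZ. In deposited intensity, siYAP/TAZ 2 and siYAP/TAZ 3 were at 82.1 and 65.5, and no other array was below 182.7. The groups overlapped through siYAP/TAZ 1, which lay above siGFP 2 and just below siGFP 3.

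The mean of Tfrc over the siGFP arrays was 8.24 ± 0.70 (SD, n = 3), and over the siYAP/TAZ arrays 6.88 ± 1.10 (SD, n = 3). The log2 difference was -1.36 (SE 0.57, 95% interval -2.67 to -0.06; limma, unadjusted p = 0.042, adjusted p = 1.00). The exact two-sided permutation p was 0.2, where 3 arrays against 3 cannot go below 0.1. Among all genes this difference stood at percentile 0.125, counted from the most negative. Pair by pair Tfrc differed by -0.83, -1.15 and -2.11 with siRNA and by -0.16 with shRNA. The mean of the 4 pairs was -1.06 (SE 0.29, 95% interval -1.71 to -0.41; limma with the pair as a block, unadjusted p = 0.00467, adjusted p = 0.361). Without the block the same mean had an SE of 0.62, so the width of that interval rests on the pairing. Tfrc was lower in 4 of 4 pairs, and the exact sign-flip permutation p was 0.125, the smallest that 4 pairs allow. The shRNA pair lay 1.20 above the mean of the siRNA pairs (limma over the 4 pair differences, adjusted p = 1.00), where the lone shRNA pair is assumed to vary like the siRNA pairs. The siRNA difference was between -1.99 and -0.96 when single arrays were left out, and the mean of the pairs between -1.36 and -0.71 when single pairs were.

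**Figure D3:**
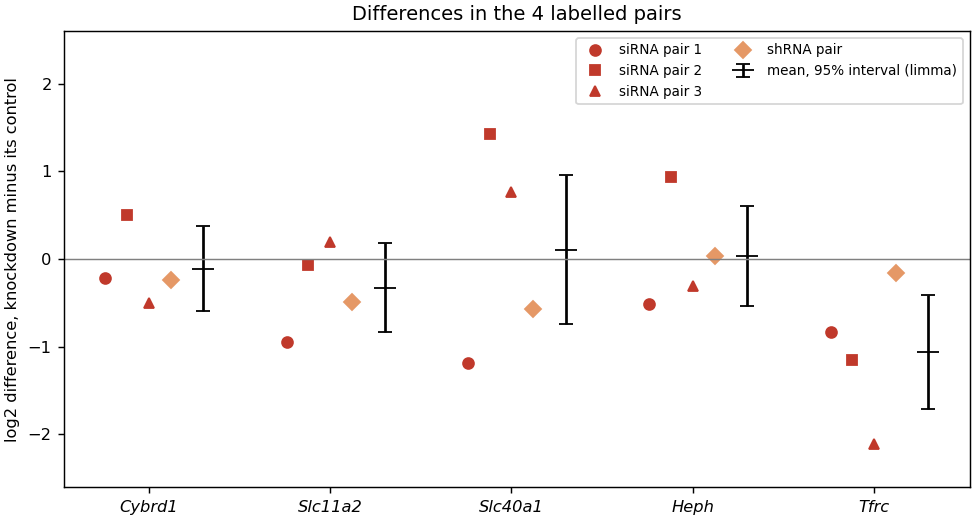
Log2 difference of each knockdown array from its labelled control (vertical axis) for the 5 genes; red symbols are siRNA pairs 1 to 3, the orange diamond the shRNA pair, and the black bar the mean of 4 pairs with its 95% interval from limma. All 4 points of Tfrc lie below 0, from -2.11 to -0.16, and the other genes have points on both sides of 0.

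The mitotic and stem cell lists were set beside Tfrc. The mean of 14 measured mitotic genes of 15 listed ran from 5.71 to 8.11 over siGFP and from 5.79 to 8.49 over siYAP/TAZ. It differed by -0.40 between the siRNA groups, with 12 of the 14 genes lower in the mean. Pair by pair it differed by 0.38, -1.66 and 0.08 with siRNA and by 0.08 with shRNA, beside -0.83, -1.15, -2.11 and -0.16 for Tfrc. Among the 3 arrays with mitotic means of 5.71 to 5.95, Tfrc was 8.18 on siGFP 3 and 6.43 and 6.07 on siYAP/TAZ 2 and siYAP/TAZ 3. The mean of 12 crypt base stem cell genes, among them Lgr5 and Olfm4, was lower in every pair, at -0.76, -1.59, -0.22 and -0.74, with a range of 6.45 to 8.38 over siGFP and 6.23 to 7.62 over siYAP/TAZ. The part of dividing and crypt cells in the Tfrc values was not tested.

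Lymphocytes and red cell precursors can also carry Tfrc. The mean of 11 measured B and plasma cell genes of 12 listed ran from 5.10 to 5.57 over siGFP and from 5.07 to 7.63 over siYAP/TAZ, and was highest, at 7.63 and 6.73, on siYAP/TAZ 2 and siYAP/TAZ 3, where Tfrc was lowest. For 11 measured T cell genes of 12 listed the mean ran from 5.78 to 6.56 over siGFP and from 6.23 to 6.81 over siYAP/TAZ. Only 5 of 12 erythroid genes were measured, with no globin among them. Their mean ran from 6.09 to 6.76 over siGFP and from 6.03 to 6.84 over siYAP/TAZ. The part of lymphocytes and red cell precursors in the Tfrc values was not tested.

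The gut region was checked because the label of these genes speaks of the duodenum. The arrays with low Fabp6 were not those with the most Cybrd1 or Slc40a1. On siGFP 2, siYAP/TAZ 3, shLacZ and shYAP/TAZ, where Fabp6 did not exceed 4.40, Cybrd1 was at 6.48, 6.28, 6.20 and 5.96, and the highest Cybrd1 level, 6.98, was on siYAP/TAZ 2, which also had the most Fabp6. Slc40a1 was likewise highest on siGFP 1 and siYAP/TAZ 2, which had the most Fabp6. It was lowest, at 5.23, on siGFP 3, where Fabp6 was also high, at 10.45, so Slc40a1 did not follow Fabp6 over the arrays. Slc11a2 was at 7.72, 8.17, 8.69 and 8.20 on the 4 arrays with low Fabp6 and at 8.63, 7.97, 7.68 and 7.65 on siGFP 1, siGFP 3, siYAP/TAZ 1 and siYAP/TAZ 2. The mean of 14 genes of the proximal small intestine was 10.30, 10.32, 10.27 and 9.79 on the first set and 8.43, 9.68, 9.01 and 9.07 on the second. These sets of arrays are not groups of the study and no test was made. The labels do not give a duodenal origin of the tissue.

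The other genes of iron handling, 55 measured of 57 listed besides the members, gave no call: limma called 0 in the siRNA arm and 0 over the 4 pairs. The shares of all genes called were 0% and 0.0201%. At an unadjusted p under 0.05 there was 1 of the 55 in the siRNA arm, Mcoln1, beside 1.19% of all genes. Over the pairs there were 5 of the 55 (Steap3, Mcoln1, Flvcr1, Aco1 and Slc25a37), beside 7.49% of all genes. The median log2 difference of the 55 was -0.05 in the siRNA arm and -0.10 over the 4 pairs, beside -0.02 and -0.02 for all genes. In the siRNA arm 37 were lower and 18 higher in the mean, beside 10692 lower and 9246 higher of all 19938 genes. Over the 4 pairs 32 of the 55 were lower in the mean, beside 10660 of all genes. The siRNA groups did not overlap for 2 of them, both lower (3.64%), where 2.99% of all genes were lower and 1.6% higher in that way. In all 4 pairs, 6 were lower (10.9%, beside 8.95% of all genes) and 0 were higher in all 4.

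Mcoln1 and Aco1 were the 2 iron genes whose knockdown arrays all lay below all control arrays, in both arms together. Mcoln1 encodes a channel that releases iron and calcium from lysosomes. It was at 9.55, 8.89 and 9.20 on the siGFP arrays and 9.49 on shLacZ, against 8.38, 8.31 and 8.07 on the siYAP/TAZ arrays and 8.34 on shYAP/TAZ. Its mean difference over the 4 pairs was -1.01 (SE 0.20; limma, unadjusted p = 0.000524, adjusted p = 0.218), or 2.01-fold.

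Aco1 encodes cytosolic aconitase, which becomes an iron regulatory protein when it loses its iron-sulfur cluster. It was at 9.19, 9.54 and 9.20 on the siGFP arrays and 9.87 on shLacZ, against 8.66, 8.65 and 8.80 on the siYAP/TAZ arrays and 9.03 on shYAP/TAZ. The mean difference was -0.67 (SE 0.19; limma, unadjusted p = 0.00617, adjusted p = 0.396). Of all genes, 1.34% had every knockdown array below every control array and 0.627% had every one above. Among the 55 iron genes these were 2 and 0, and among the 5 members 0 and 0. Ireb2, the other iron regulatory protein, differed by -0.04, -1.83, 0.13 and -0.36.

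**Figure D4:**
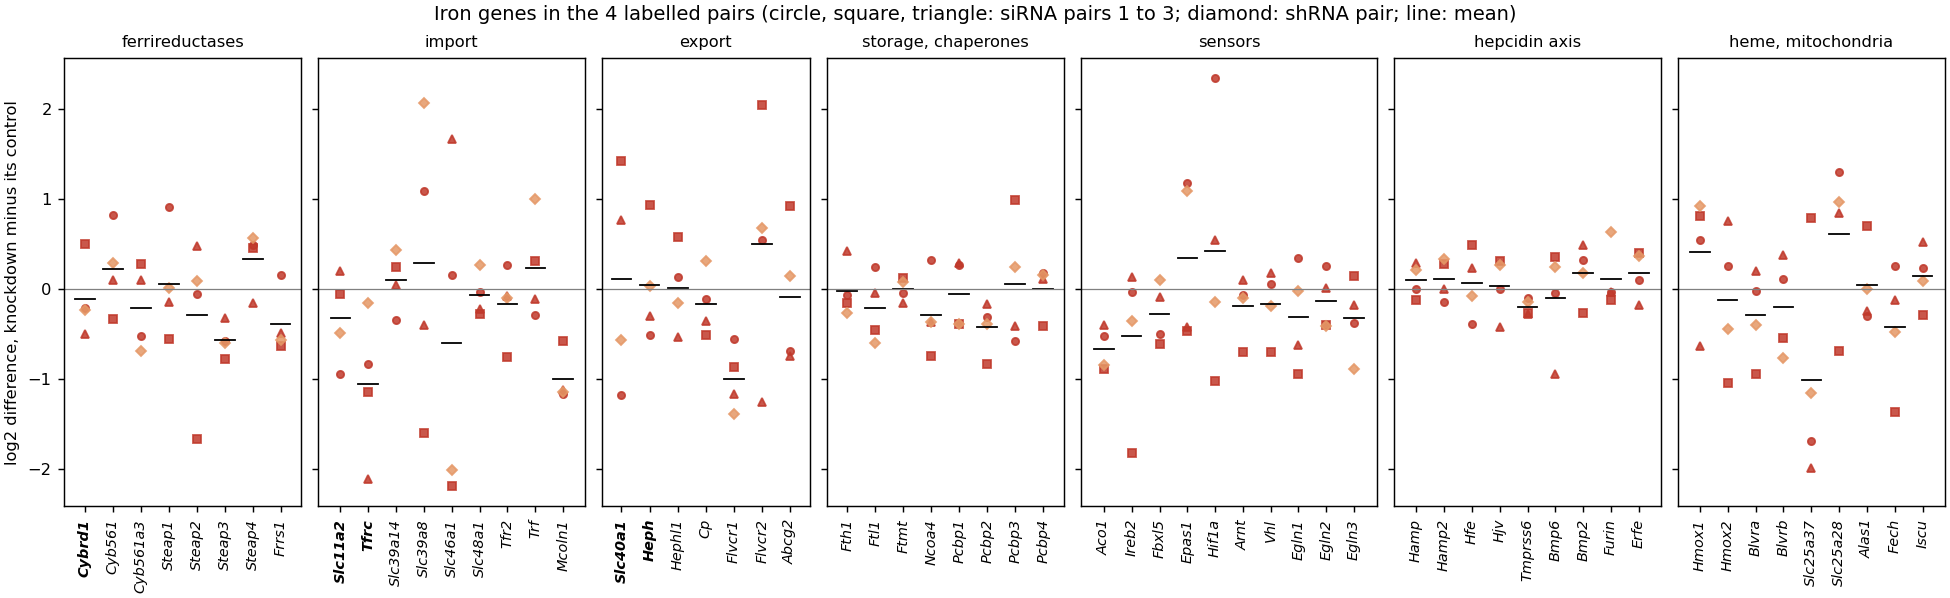
Log2 difference of each knockdown array from its control (vertical axis) for the 60 measured iron genes, by role; circles, squares and triangles are siRNA pairs 1 to 3, diamonds the shRNA pair, black lines the mean of the 4 pairs, and bold names the 5 member genes. Tfrc, Mcoln1, Flvcr1, Aco1, Steap3, Pcbp2 and Tmprss6 have all 4 points below 0.

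Of the 7 other ferrireductase genes, 4 were lower and 3 higher in the mean of the siRNA arm. Steap3, an endosomal reductase that acts on iron delivered by transferrin, was lower in all 4 pairs, at -0.58, -0.79, -0.33 and -0.61 (limma, adjusted p = 0.475 over the 4 pairs). Steap4, a reductase of the same family, differed by 0.48, 0.45, -0.16 and 0.56. Of the 7 other import genes, all were lower in the mean of the siRNA arm, with a median of -0.18, but over the 4 pairs 4 were lower, with a median of -0.07, and in the shRNA pair their median was 0.26. Trf, which encodes transferrin, differed by -0.29, 0.31, -0.11 and 1.00, the last from 5.93 on shLacZ to 6.93 on shYAP/TAZ.

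Among the 5 other export genes, 3 were lower and 2 higher in the mean of the siRNA arm. Flvcr1, known as a heme exporter, was lower in all 4 pairs, at -0.55, -0.87, -1.17 and -1.40 (mean -1.0, SE 0.21; limma, adjusted p = 0.234). Its second probe set was also lower in all 4, at -0.70, -1.43, -1.51 and -1.23. The siRNA groups overlapped all the same, because siGFP 1 was at 7.86 and the other siGFP arrays at 10.37 and 9.56.

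The ferritin genes differed little in the mean of the siRNA arm, by 0.06 for Fth1 and -0.09 for Ftl1. Each was lower in 3 of 4 pairs. Fth1, the heavy chain, ran from 11.72 to 12.14 over siGFP and from 11.98 to 12.14 over siYAP/TAZ, with pair differences of -0.07, -0.16, 0.42 and -0.27. Ftl1, the light chain, differed by 0.24, -0.46, -0.05 and -0.60. Ferritin is controlled mainly at translation, which arrays do not measure. Of the 8 storage and chaperone genes, 6 were lower in the mean of the siRNA arm, with a median of -0.04. Pcbp2, which delivers iron to ferritin, was lower in all 4 pairs, at -0.31, -0.84, -0.17 and -0.39.

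Of the 10 sensor genes, 8 were lower in the mean of the siRNA arm, with a median of -0.19. Epas1 differed by 1.17, -0.47, -0.43 and 1.09, higher in siRNA pair 1 and the shRNA pair, the pairs in which Slc40a1 stood lower. Slc11a2 stood lower in those pairs and, at -0.06, in siRNA pair 2. Cybrd1 stood lower in those pairs and, at -0.50, in siRNA pair 3. The part of Epas1 in the values of these genes was not tested. A list of 15 hypoxia targets had a median difference of 0.17 in the siRNA arm and 0.22 over the pairs, and 4 of them were higher in all 4 pairs (26.7%, beside 6.02% of all genes). These were Pfkfb3, Adm, Slc2a1 and Bnip3. Pfkfb3 was named for the size of its differences in these data, and the last 3 after their values were seen. The differences of Pfkfb3 and Adm in siRNA pair 2 were 0.00057 and 0.0024. The largest mean size of difference over the pairs was that of Pfkfb3, a regulator of glycolysis, at 3.56, 2.03 and 0.74 in the other pairs. Next came Ndrg1, at 1.05, -0.78, -1.82 and 0.88, and Ankrd37, at -1.39, 1.05, -0.29 and -0.31. None of the 15 was called by limma in either comparison, beside 0% and 0.0201% of all genes. At an unadjusted p under 0.05 there was 1 in the siRNA arm, beside 1.19% of all genes, and 3 over the pairs, beside 7.49%. In all 4 pairs 0 were lower, beside 8.95% of all genes.

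Hepcidin, the hormone that removes ferroportin from the membrane, is made in the liver. Hamp gave a dim signal of 4.76 to 5.13 on all 8 arrays, with pair differences of -0.01, -0.13, 0.29 and 0.21, and Hamp2, a close copy that could share its signal, differed by -0.15, 0.28, -0.01 and 0.33. Hfe, which takes part in hepcidin control, differed by -0.39, 0.49, 0.24 and -0.08. Tmprss6, a protease that lowers hepcidin, was lower in all 4 pairs by small amounts, at -0.10, -0.27, -0.28 and -0.15 (limma over the 4 pairs, unadjusted p = 0.295). Its signal was also dim, at 5.42 to 6.14 on all 8 arrays. Over these 9 genes of the hepcidin axis the median in the siRNA arm was 0.04. Among the 9 genes of heme breakdown and mitochondrial iron use, 5 were lower and 4 higher, and Hmox1, the inducible heme oxygenase, differed by 0.54, 0.81, -0.64 and 0.92.

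In the shRNA arm, with 1 array per group and so no test within the arm, no member reached a difference of 2-fold. The share of all genes at least 2-fold apart was 4.59%, with 2.76% lower and 1.84% higher. The other iron genes had 4 lower and 2 higher by that much. Named after their values were seen, the 4 were Slc46a1 (-2.02), Flvcr1 (-1.40), Slc25a37 (-1.16) and Mcoln1 (-1.15), and the 2 were Slc39a8 (2.06) and Epas1 (1.09).

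The genes whose levels ran most like each member over the 8 arrays were taken from genes brighter than the median gene, 9968 or 9969 candidates per member. The likeness is Pearson's r of the log2 levels and is a description, since the highest of so many is high by selection and the arrays share the composition differences given above. For Heph these were Plekha7 (r = 0.993, Spearman's rho = 0.976), Ctsd (r = 0.992, rho = 0.976) and Zc3hav1 (r = 0.991, rho = 0.952). For Tfrc they were Mrtfb (r = 0.985, rho = 0.857), Ski (r = 0.984, rho = 0.881) and Ptov1 (r = 0.982, rho = 0.905). For Cybrd1 they were Mylip (r = 0.972, rho = 0.881), Ccdc12 (r = 0.972, rho = 0.929) and Ing1 (r = 0.970, rho = 0.905). For Slc11a2 they were Coro7 (r = 0.952, rho = 0.929), Pm20d1 (r = 0.946, rho = 0.976) and Gna11 (r = 0.940, rho = 0.881). For Slc40a1 the nearest were B230307C23Rik (r = 0.851, rho = 0.905), Dennd1a (r = 0.845, rho = 0.738) and Serhl (r = 0.833, rho = 0.571). By r its pattern had the least close match among these candidates, but the rho of the first, 0.905, was not the lowest.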

How the data were processed

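The authors deposited a linear intensity for each of 28853 probe sets on 8 arrays. The sources used here do not give how they corrected background, summarised or scaled. Here log2 was taken of the deposited intensities, followed by quantile normalization over the 8 arrays. Of the probe sets, 21789 name 1 gene, 1621 several and 5443 none; symbols were updated through Entrez identifiers for 21698, from a RefSeq table of GRCm38.p6. A gene with several probe sets was read by the brightest, and no filter on dim genes was applied. All arrays have a floor just above 16, and subtracting 16 was an alternative.

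Differences between siYAP/TAZ and siGFP (3 arrays each) and over the 4 labelled pairs, with the pair as a block, were tested with limma 3.58.1 in R 4.3.3 on all 19938 genes, with Benjamini-Hochberg adjustment and a threshold of 0.05. Single values were also tested by exact two-sided permutation. The scripts were tested on simulated data. The planted differences were larger than the mean differences of the members, and the pair differences varied less. That test therefore does not show whether differences of the size seen here would be called. Named iron genes are those whose siRNA groups do not overlap, that differ 1 way in all 4 pairs, or that are direct partners of the members. Other genes were named after their values were seen. The members and lists were chosen with earlier results of these data known. The number of arrays limits the precision.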

Additional observations from a re-analysis of the deposited data

Results flagged for a closer look

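Among 21 genes examined for a pair far from the other 3, Steap4 and Mcoln1 had such a pair, and chance gives about 1 in 20. The Steap4 difference of siRNA pair 3, -0.16, lay apart from the other pairs, at 0.45 to 0.56. The Mcoln1 difference of siRNA pair 2, -0.58, lay apart from the other pairs, at -1.17 to -1.13.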

How the results depend on the processing

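No member passed the threshold in any alternative fit, of which each member had 15 in the siRNA arm and 11 over the pairs. Over these fits the adjusted p for Tfrc ran from 0.143 to 1.00. Tfrc, Mcoln1 and Aco1 kept their direction in all of them. Some of the fits repeat another. Leaving out the shRNA pair repeats the siRNA arm with the replicate block. Fitting all 8 arrays by group means gave the same Tfrc values as the main siRNA fit. Heph turned to -0.017 (siRNA arm) and -0.029 (pairs) without scaling between arrays, and Slc11a2 turned to 0.076 in the siRNA arm with array weights. Leaving out single arrays gave siRNA differences of -0.35 to 0.14 for Cybrd1, -0.47 to -0.01 for Slc11a2, -0.13 to 0.99 for Slc40a1 and -0.26 to 0.58 for Heph. Leaving out single pairs gave -0.32 to 0.018 for Cybrd1, -0.33 to 0.54 for Slc40a1 and -0.26 to 0.22 for Heph. Over all genes, the siRNA arm had 0 to 13 calls when single arrays were left out, with the 13 coming without siYAP/TAZ 1, and 1 with the replicate block. The 4 calls over the pairs became 15 with arrays centred on the 75th percentile, 19 without scaling, 2 with 16 subtracted, 8 without the dimmest 33%, 12 with a trended robust prior, 0 with no replicate block (4 arrays against 4) and 1 to 26 when single pairs were left out. Without siRNA pair 2, those 26 held 1 iron gene, Slc25a37 (adjusted p = 0.0497). The labels name the pairs, but same-numbered siRNA arrays did not all deviate together: deviations from the group means correlated by 0.755, -0.13 and 0.571 for numbers 1, 2 and 3, and siYAP/TAZ 2 ran closest to siGFP 3 (0.583). With the replicate block the adjusted p of Tfrc in the siRNA arm was 0.515.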

Other observations

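Outside the naming rule, and chosen after their values were seen, 3 other iron genes varied widely between arrays. Slc46a1, a proton-coupled folate transporter of the proximal gut that has also been linked to heme, was at 10.18 on siGFP 2, 10.43 on siYAP/TAZ 3 and 10.35 on shLacZ, 3 of the 4 arrays with low Fabp6, and at 7.99 to 8.76 on the other 5. Its pair differences were 0.15, -2.19, 1.67 and -2.02.

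Slc39a8, a transporter of zinc, manganese and iron, was at 8.72 on siYAP/TAZ 1 and 8.38 on shYAP/TAZ, the arrays with the highest acute defence means (8.45 and 8.17), and at 5.10 to 7.63 on the others. Slc25a37, which brings iron into mitochondria, was at 11.41 on siGFP 3 and 7.76 on siYAP/TAZ 1, with pair differences of -1.70, 0.79, -1.99 and -1.16.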
